A study of Mus musculus with 69 samples.

Results

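The genes described here are those of mitochondrial complex I, taken as every gene whose symbol starts with Ndufa, Ndufb, Ndufc, Ndufs, Ndufv or Ndufaf followed by a number and that had a probe set annotated to that symbol alone. In all, 42 of 18820 genes met this rule, the brightest probe set by mean over arrays standing for a gene with several. By textbook assignment 33 of the 42 encode subunits of the complex: 6 core subunits, 9 accessory subunits of the peripheral arm and 18 accessory subunits of the membrane arm. Another 7 are assembly factors, which help to build the complex but are not part of it. Ndufa4 is now counted as a subunit of complex IV in spite of its name, and Ndufa4l2 is its paralog.

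Expression was measured on Affymetrix arrays in dorsal skin of mice aged 8 weeks from the inbred strains FVB/N (FVB, 27 arrays) and Spret/Ei (SPR, 14 arrays) and from their cross (F1, 25 arrays), listed here in the order FVB, F1 and SPR. Treated skin had been shaved and 2 days later given 12-O-tetradecanoylphorbol-13-acetate (TPA), a skin tumour promoter of the phorbol ester class that acts on protein kinase C, once, at 0.0001 M in acetone. It was sampled at 2, 6, 12, 24, 48, 72, 168 and 1008 h in FVB with 3 arrays at each time, at 2, 4, 6, 12, 24, 48, 72, 168 and 1008 h in F1 with 1 to 6 arrays, and at 2, 4, 6, 12, 24, 48 and 1008 h in SPR with 1 or 2 arrays. The 0 h arrays, 3 of FVB, 4 of F1 and 2 of SPR, were of skin labelled untreated. No vehicle arrays were analysed here, so acetone, shaving, age at 1008 h and TPA cannot be told apart. The 12 h and 1008 h times are not in the treatment protocol, and the design text names replicate TPA exposure where that protocol has a single dose. All FVB arrays were batch 1 and the F1 and SPR arrays were batches 2 and 3, so levels were not compared between FVB and the others.

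Complex I is the first enzyme of the respiratory chain: it oxidises NADH, passes the electrons to ubiquinone and pumps protons across the inner mitochondrial membrane. Its peripheral arm in the matrix carries the flavin and the iron-sulfur clusters, its membrane arm holds the proton pumps, and the accessory subunits surround this conserved core. A further set of core subunits is encoded in mitochondrial DNA; none of those was measured by a probe set used here. Skin keratinocytes are known for high glycolytic activity, and phorbol ester treatment of mouse skin is known for epidermal thickening and an influx of neutrophils.

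Nuclear genes of the respiratory chain are known to share promoter motifs for NRF1, for the ETS factor GABPA, for YY1 and for ESRRA, so windows of 300 bases (250 before and 50 after the start) were taken from RefSeq on GRCm38.p6 for the 37 of 42 genes that the table held. Both strands were searched for exact matches. TGCGCA, the core of the NRF1 motif and its own reverse complement, was found in 11 of the 37 genes (29.7%, against 8.79% of 27025 genes). The YY1 motif ATGGCGG was found in 9 (24.3%, against 4.69%), the ETS motif CCGGAAG in 5 (13.5%, against 9.93%) and the ESRRA motif AAGGTCA in 3 (8.11%, against 5.38%). The windows were also richer in G and C, with a median of 59.0% against 52.7% over all windows, and the part of base composition in these shares was not tested. The promoters of the membrane arm subunit Ndufb6, the peripheral arm subunit Ndufs6 and the assembly factor Ndufaf4, which were among the genes with the largest changes, are shown with the matches in capitals. In Ndufb6 they are CTTCCGG, the ETS motif read on the other strand, and TGCGCA. In Ndufs6 they are TGCGCA and ATGGCGG. In Ndufaf4 both are TGCGCA. No match overlapped another in these 3 windows. All 3 hold the NRF1 core, which most of the 37 genes lacked, so they do not stand for the changed genes at large. The windows of Ndufa4 and Ndufaf3, which also changed strongly, held no match to any of these motifs. That of Ndufs4 held the YY1 motif alone. Whether the motifs go with the changes was not tested.
Ndufb6 promoter, chr4:40279372-40279671, minus strand: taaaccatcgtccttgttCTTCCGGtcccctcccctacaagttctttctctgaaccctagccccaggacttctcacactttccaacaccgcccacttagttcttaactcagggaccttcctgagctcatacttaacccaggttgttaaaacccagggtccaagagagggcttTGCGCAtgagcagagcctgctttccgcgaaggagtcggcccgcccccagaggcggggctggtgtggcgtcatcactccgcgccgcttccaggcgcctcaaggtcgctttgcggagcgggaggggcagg
Ndufs6 promoter, chr13:73328433-73328732, minus strand: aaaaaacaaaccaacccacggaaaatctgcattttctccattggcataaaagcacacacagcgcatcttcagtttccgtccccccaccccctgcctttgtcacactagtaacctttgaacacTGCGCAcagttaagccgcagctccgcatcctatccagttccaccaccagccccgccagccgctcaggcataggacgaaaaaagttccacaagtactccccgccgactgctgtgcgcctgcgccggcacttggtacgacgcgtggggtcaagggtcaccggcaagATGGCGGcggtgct
Ndufaf4 promoter, chr4:24897833-24898132, plus strand: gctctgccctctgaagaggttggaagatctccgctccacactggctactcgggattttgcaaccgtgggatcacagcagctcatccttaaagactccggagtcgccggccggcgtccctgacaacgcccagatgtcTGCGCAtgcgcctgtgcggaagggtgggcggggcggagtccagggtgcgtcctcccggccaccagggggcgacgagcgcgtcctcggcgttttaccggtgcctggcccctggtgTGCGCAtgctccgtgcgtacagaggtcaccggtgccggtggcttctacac

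The deposited values were log2 expression values, and all levels and changes below are on that scale, where a difference of 1 is a doubling. Changes were tested with limma across all 18820 genes, errors after ± are standard errors of that fit, and a gene was called at an adjusted p under 0.05. Nothing ties an array to its own mouse, so p-values cover array-to-array spread only, and part of that may be technical. In whole skin, fewer cells of a type and less RNA per cell cannot be told apart. The tissue label held: in untreated FVB skin the keratins Krt5, Krt14 and Krt10 averaged 11.90, 11.45 and 12.59 and the collagens Col1a1 and Col3a1 10.57 and 9.59. A pair of arrays stood apart with a narrow range of values, namely SPR 12 h replicate 1 (interquartile range 1.38 and median correlation with the other arrays 0.780) and F1 72 h replicate 2 (2.39 and 0.933); the other assigned arrays had 3.40 to 3.89 and at least 0.941. Untreated FVB replicates 2 and 3 carried liver markers (mean centred level 2.17 and 2.63, against -0.58 in replicate 1), as well as raised pancreas and lymphocyte markers. Results are therefore also given without these arrays.

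The 42 genes were well expressed. Their means over the 66 arrays ran from 5.17 for Ndufaf5 to 10.58 for Ndufb11 with a median of 7.92, and 37 of the 42 lay above the median gene at 6.13. The assembly factors were among the dimmest, which is a statement on probe sets and not on transcript numbers.

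In FVB skin 5 of the 33 subunits fell and 1 rose at 6 h after TPA, whereas at 24 h 10 rose and none fell. Ndufa4 and Ndufa4l2 changed most, and at 2 h the assembly factor Ndufaf4 rose while Ndufs5 and the assembly factor Ndufaf7 fell. The plot of changes by gene and time shows each of the 42 genes. At 2 h after TPA 3 of the 42 genes were called (14.4% of all genes were called in that comparison), and at 6 h 11 were, 4 higher and 7 lower (24.7% of all genes). At 12 h 15 were called, 11 higher and 4 lower (22.7% of all genes), and at 24 h 11, all higher (13.5% of all genes were called and 6.11% were called higher). At 48 h 8 were higher and 2 lower (13.3% of all genes), at 72 h 3 and 1 (3.3% of all genes), and at 1008 h 7 and 3 (17.9% of all genes). At 168 h limma called 0 of the 42 (0.468% of all genes), and 7 had an unadjusted p under 0.05. The called share of the 42 was thus 7.14% at 2 h and 26.2% at 6 h, below or near that of all genes, and 35.7%, 26.2%, 23.8%, 9.52% and 23.8% at 12, 24, 48, 72 and 1008 h, above it. Over all times together, limma's F test called 30 of the 42 genes (50.9% of all genes). The split of the early calls into rises and falls depended on the scaling. With each array centred on its median, 3 genes were higher and 0 lower at 2 h, so the falls of Ndufs5 and Ndufaf7 at that time were lost. At 6 h 4 were then higher and 5 lower (15.4% and 9.52% of all genes, instead of 12.1% and 12.6%), with 3 subunits falling instead of 5; at 72 h 6 and 0, and at 1008 h 7 and 1.

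**Figure D1:**
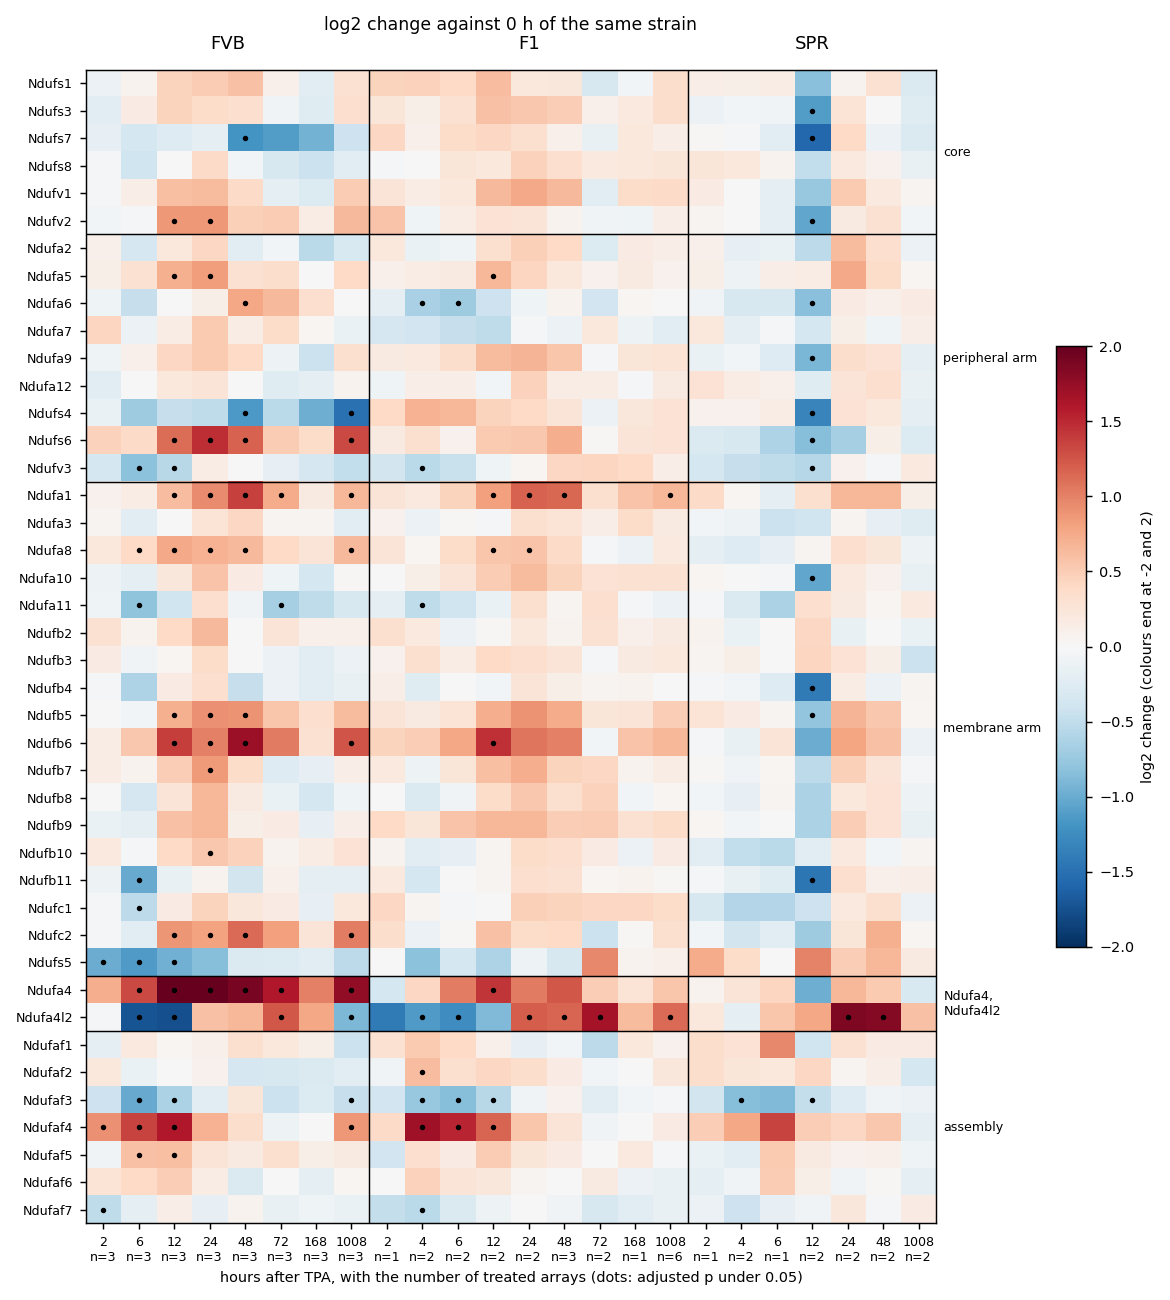
Heat map of the log2 change against 0 h of the 42 genes (rows, grouped by role) at every time in FVB, F1 and SPR (columns); dots mark an adjusted p under 0.05 and the colours end at 2 in either direction. In FVB at 24 h 37 of the 42 changes were positive, and the SPR 12 h column includes the array of narrow range.

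Sizes were mostly small. The median change of the 42 genes in FVB was -0.03 at 2 h and -0.10 at 6 h. It then stood at 0.24 at 12 h, 0.48 at 24 h and 0.23 at 48 h, and later at 0.04 (72 h), -0.17 (168 h) and 0.05 (1008 h), while the median over all genes stayed between -0.04 and 0.05. Centring each array on its median gave 0.15 at 2 h and 0.027 at 6 h, where the median over all genes was 0.20 and 0.12, so the sign of the early medians turned with the scaling while they stayed below the all-gene median. These comparisons share the 3 untreated arrays. At 24 h 37 of the 42 changes were positive, and in 25 genes all 3 treated arrays lay above all 3 untreated ones (19.7% of all genes did so). At 6 h 18 genes had all treated arrays below the untreated ones (20.8% of all genes) and 5 above (21.9%). Calls rested on few arrays: leaving out each array in turn, 6 of the 11 calls at 24 h were kept in every fit. At 2, 6 and 12 h 0 of 3, 6 of 11 and 8 of 15 were kept. At 48, 72 and 1008 h 6 of 10, 0 of 4 and 5 of 10 were kept. The count at 24 h was 7 without untreated replicate 1 or 2 and 6 without treated replicate 2 or 3. The other counts that moved by over 1.5 times were those at 2 h (0 without untreated replicate 1 or 2 or treated replicate 2), 6 h (7 without treated replicate 2), 72 h (0 without untreated replicate 2 and 1 without untreated replicate 3) and 1008 h (6 without treated replicate 2). Without 3 more arrays with raised markers of other tissues (FVB 6 h replicate 3, 48 h replicate 1 and 72 h replicate 3) the counts were 9 at 6 h, 8 at 48 h and 4 at 72 h. With untreated replicate 1 as the single control, 3, 5, 4, 2 and 1 genes were called at 6, 12, 24, 48 and 1008 h (12.3%, 10.1%, 3.6%, 1.29% and 6.48% of all genes), so that the called share of the 42 lay below that of all genes at 6 h and at 1008 h. In that fit the lone control is taken to vary like the other groups, and the median change at 24 h was 0.51. Without the 2 arrays of narrow range calls rose over all genes too: 5 of the 42 were called at 2 h (24.7% of all genes), 19 at 24 h (25.3%), 12 at 72 h (14.2%) and 4 at 168 h (6.75%).

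Averaged over the 33 subunits, each gene centred on its own mean, the 3 arrays at 24 h stood at 0.34, 0.43 and 0.38 and those at 6 h at -0.26, -0.19 and -0.39, against -0.17, -0.13 and 0.03 in untreated skin. All arrays of 24 h lay above and all of 6 h below the untreated range. The average of the 7 assembly factors ran differently. It was 0.20, 0.15 and -0.02 at 6 h, 0.31, 0.14 and 0.33 at 12 h and -0.02, 0.11 and 0.10 at 24 h, after -0.12, -0.08 and -0.00 at 0 h. It was thus high at 12 h and overlapped the untreated range at 24 h. This average leans on 1 gene: Ndufaf4 had by far the largest rise of the 7 at 6 h and 12 h, while Ndufaf3 fell. It is therefore no measure of a shared course of the assembly factors. Whether the 2 groups of genes differed was not tested.

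**Figure D2:**
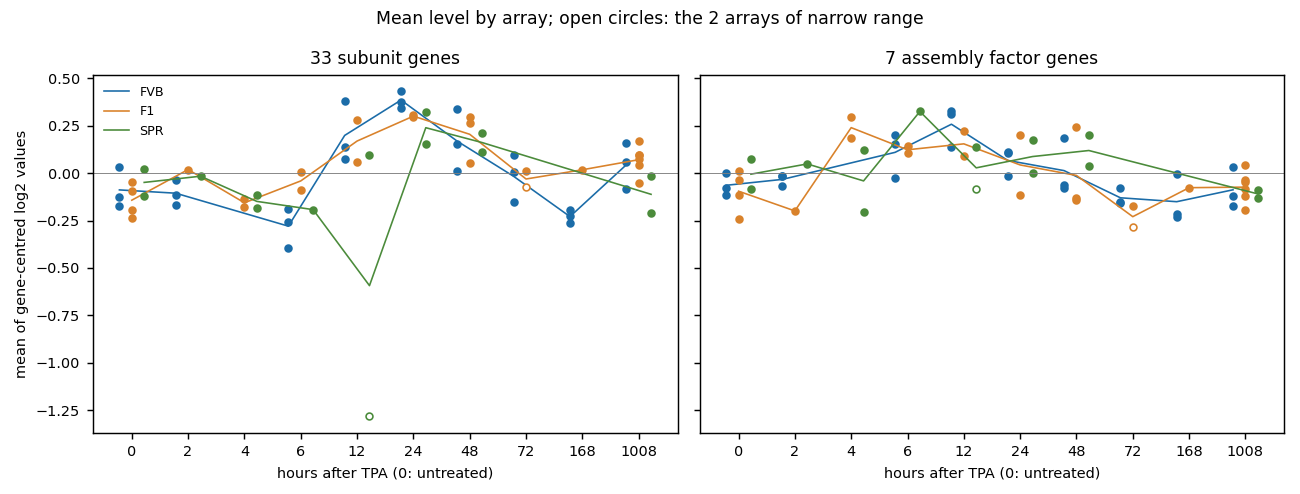
Mean gene-centred log2 level of the 33 subunits and of the 7 assembly factors (vertical axes) on each array by time (evenly spaced categories) in FVB, F1 and SPR; open circles mark the 2 arrays of narrow range. The FVB arrays of 24 h stand at 0.34 to 0.43 for subunits, above the untreated ones at -0.17 to 0.03.

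Of the 6 core subunits, which carry the redox centres, Ndufv2 was the only one called higher at any FVB time. Ndufv2, an iron-sulfur subunit of the NADH-oxidising end, rose by 0.86 ± 0.27 at 12 h (adjusted p = 0.0152) and by 0.87 ± 0.27 at 24 h (adjusted p = 0.0239). These calls were lost in 2 and 4 of 6 fits that left out 1 array. Ndufs7, which carries the last iron-sulfur cluster before ubiquinone, went the other way. It had 9.44, 9.68 and 10.13 in FVB skin at 48 h, against 10.84 to 11.01 on the 3 untreated arrays, without overlap, and fell by 1.20 ± 0.38 (adjusted p = 0.0322). That call was lost in 5 of 6 fits that left out 1 array (adjusted p up to 0.104) and with a single untreated control (adjusted p = 0.320). Its changes at 12 h and 24 h were -0.27 and -0.19, neither called. The remaining core genes Ndufs1, Ndufs3, Ndufs8 and Ndufv1 passed at no time in FVB; at 24 h they stood at 0.51, 0.37, 0.38 and 0.63, and the median of the 6 was 0.44.

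Among the 9 accessory subunits of the peripheral arm, Ndufs6 and Ndufs4 moved in opposite directions. Ndufs6, a zinc-binding subunit that joins late in assembly, had 7.83, 7.99 and 7.75 at 24 h, against 6.58, 6.11 and 6.43 in untreated FVB skin. Every treated array was higher by more than the spread of either group. The change was 1.48 ± 0.28, a 2.79-fold rise (adjusted p = 0.000325), and Ndufs6 was also called at 12 h (1.11), 48 h (1.18) and 1008 h (1.32, adjusted p = 0.000614). These 4 calls held in every fit that left out 1 array; with a single untreated control none of them passed.

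Ndufs4, an accessory subunit next to the NADH-oxidising end whose loss in mice gives a Leigh-like brain disease, had 9.21, 8.39 and 8.69 at 1008 h and 8.75, 9.45 and 9.13 at 48 h, against 10.16, 10.16 and 10.43 untreated. Neither later group overlapped the untreated arrays. It fell by 1.49 ± 0.36 at 1008 h, to 0.357 times the untreated level (adjusted p = 0.00286), and by 1.14 ± 0.36 at 48 h (adjusted p = 0.0306). With a single untreated control both calls were lost (adjusted p = 0.102 at 1008 h and 0.304 at 48 h), and the 48 h call was also lost in 5 of 6 fits that left out 1 array. At 12 h and 24 h Ndufs4 stood at -0.46 and -0.51 from its untreated mean, not called.

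The other peripheral arm genes gave single calls or short runs. Ndufa5, which sits beside the core of this arm, rose by 0.70 at 12 h and 0.84 at 24 h. Ndufv3, an accessory subunit of the NADH-oxidising module, fell by 0.82 ± 0.18 at 6 h (adjusted p = 0.000517) and by 0.55 at 12 h. Ndufa6, a subunit of the LYR protein family, rose by 0.78 at 48 h. Ndufa2, Ndufa7, Ndufa9 and Ndufa12 were called at no FVB time.

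Of the 10 subunits that rose at 24 h 7 were accessory subunits of the membrane arm, a class that holds 18 of the 33. None of the 18 fell, and 6.11% of all genes were called higher. In 15 of the 18 all treated arrays lay above the untreated ones (19.7% of all genes did so). The median change of the 18 was 0.61, beside 0.41 for the peripheral arm genes and 0.44 for the core genes. Whether the classes differed was not tested. At 6 h 1 of the 18 rose and 4 fell, with a median of -0.19. Ndufb6, a subunit of the outer part of the membrane arm, changed most. It had 10.16, 10.03 and 9.85 at 12 h, 9.35, 9.84 and 9.71 at 24 h and 10.34, 10.000 and 10.68 at 48 h, after 8.48, 8.59 and 8.81 at 0 h. No array of these times reached down to the untreated range. The rises were 1.39 ± 0.35 at 12 h (adjusted p = 0.00315), 1.01 ± 0.35 at 24 h (adjusted p = 0.0481) and 1.71 ± 0.35 at 48 h, a 3.28-fold difference (adjusted p = 0.00122). Ndufb6 was still higher by 1.25 at 1008 h. Its calls at 24 h and 1008 h were lost when single arrays were left out, and with a single untreated control Ndufb6 passed at 12 h alone (adjusted p = 0.046).

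Ndufa1, a small X-linked subunit needed to build the membrane arm, rose at every FVB time from 12 h to 72 h and at 1008 h; it is given array by array because of its F1 values, a choice made after they were seen. It had 7.28, 7.44 and 7.22 at 48 h, against 5.94, 6.09 and 5.83 untreated, all treated arrays well above. The 48 h change of 1.36 ± 0.20 was a 2.57-fold rise (adjusted p = 2.09e-05). Leaving out 1 array lost the Ndufa1 calls at 12, 72 and 1008 h in 5, 4 and 3 of 6 fits. Those at 24 h and 48 h held in every fit. Ndufa8, Ndufb7 and Ndufb10 encode subunits with the CHCH fold on the intermembrane side. Ndufa8 rose at 6, 12, 24, 48 and 1008 h, by 0.40 to 0.75 (adjusted p at 12 h = 5.38e-05), and its 6 h call was lost in 3 of 6 such fits. Ndufb7 rose by 0.85 and Ndufb10 by 0.53 at 24 h, though the Ndufb10 arrays overlapped those of untreated skin. The Ndufb10 call was lost in 5 of 6 fits that left out 1 array. Ndufc2, at the joint of both arms, rose at 12, 24, 48 and 1008 h with 1.13 at 48 h, and Ndufb5 at 12, 24 and 48 h with 0.92 at 24 h. Such fits lost the Ndufc2 call at 12 h in 1 of 6 and at 24 h in 5 of 6. They lost the Ndufb5 calls at 12, 24 and 48 h in 5, 2 and 2 of 6.

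At 6 h 5 of the 18 membrane arm genes were called, a share near the 24.7% of all genes, and 4 of these calls were falls. Ndufs5, another CHCH subunit and dim at a mean of 5.50, fell at 2, 6 and 12 h, by 1.14 at 6 h. Fits that left out 1 array lost these calls in 5, 1 and 4 of 6. Ndufb11 fell by 1.01, Ndufa11 by 0.80 and Ndufc1 by 0.52 at 6 h. The Ndufb11 call was lost in 2 of 6 such fits and the Ndufc1 call in all 6, while the Ndufa11 call held. A second probe set existed for 6 genes. Those of Ndufb11 and Ndufc1 also fell at 6 h, by 0.77 and 0.67. The second probe set of Ndufa11 did not pass at 6 h (-0.16) and rose at 24 h by 0.69 (adjusted p = 0.00175), so the fall of Ndufa11 at 6 h rests on 1 of its 2 probe sets; that probe set also fell at 72 h, by 0.67. The dimmer probe set of Ndufb5 rose at 12 and 24 h as well (1.21 and 1.04), and also at 6 h (1.04), where the brighter one stood at -0.06.

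Ndufa4 and its paralog Ndufa4l2 had the largest changes of all, Ndufa4 upward and Ndufa4l2 in both directions. Ndufa4, a subunit of cytochrome c oxidase, had 8.55, 8.45 and 8.62 at 0 h, 8.98, 9.25 and 9.59 at 2 h, 9.89, 10.29 and 9.40 at 6 h, 10.39, 10.43 and 10.99 at 12 h and 10.47, 10.68 and 10.57 at 24 h. Later it had 10.07, 10.75 and 10.49 at 48 h, 10.65, 9.87 and 9.92 at 72 h, 9.78, 9.57 and 9.32 at 168 h and 10.41, 10.47 and 10.08 at 1008 h. Every treated array lay above the untreated ones, and the levels of 12, 24 and 48 h overlapped each other. Ndufa4 was 4.16-fold higher at 12 h (2.06 ± 0.39, adjusted p = 0.00014) and 4.08-fold higher at 24 h (2.03 ± 0.39, adjusted p = 0.000431). It was called at each time from 6 h to 1008 h other than 168 h (1.01, adjusted p = 0.208). With a single untreated control it passed at 12 and 24 h.

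Ndufa4l2, known as a target of the hypoxia-inducible factor HIF-1 and reported to lower complex I activity, had 5.74, 5.004 and 4.41 at 6 h and 4.93, 4.68 and 5.44 at 12 h, against 7.04, 6.82 and 6.46 in untreated FVB skin. Both groups lay wholly below the untreated one. It fell by 1.72 ± 0.31 at 6 h, to 0.303 times the untreated level (adjusted p = 3.75e-05), and by 1.76 ± 0.31 at 12 h (adjusted p = 4.42e-05). At 72 h it was high, with 7.88, 8.24 and 7.91, a rise of 1.24 ± 0.31 over untreated skin (adjusted p = 0.0196). At 1008 h it was low again, with 5.88, 5.94 and 5.79, and fell by 0.90 ± 0.31 (adjusted p = 0.0343). The 6 h and 12 h falls passed in every fit that left out 1 array and with a single untreated control; the 72 h and 1008 h calls did not.

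**Figure D3:**
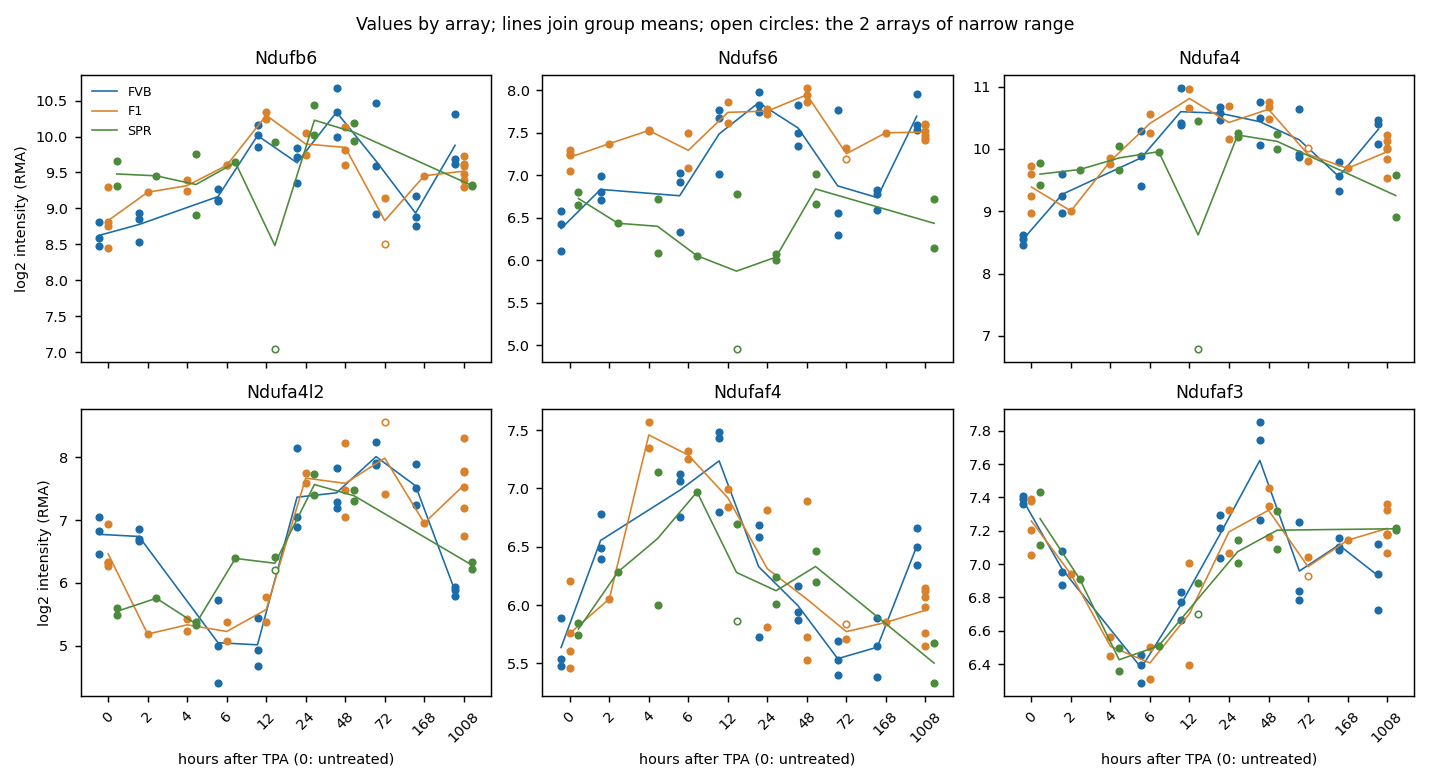
Log2 expression of Ndufb6, Ndufs6, Ndufa4, Ndufa4l2, Ndufaf4 and Ndufaf3 (vertical axes) on every assigned array by time after TPA (evenly spaced categories) in FVB, F1 and SPR; each point is 1 array and open circles mark the 2 arrays of narrow range. Ndufaf4 is high and Ndufaf3 low at 6 h, where FVB arrays have 6.75 to 7.13 and 6.29 to 6.45.

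Of the 7 assembly factors, Ndufaf4 and Ndufaf3 changed early and in opposite directions; in human cells their proteins are known to work as a pair. Ndufaf4 had 6.39, 6.78 and 6.49 at 2 h, 7.13, 7.07 and 6.76 at 6 h and 7.48, 6.80 and 7.43 at 12 h, after 5.54, 5.48 and 5.89 at 0 h. The treated arrays were all higher, while at 24 h (5.73, 6.58 and 6.68) 1 of the 3 lay within the untreated range. It rose by 0.92 ± 0.27 at 2 h (adjusted p = 0.0187), 1.35 ± 0.27 at 6 h (adjusted p = 0.000229) and 1.60 ± 0.27 at 12 h, 3.03-fold (adjusted p = 3.32e-05). Ndufaf4 was also called higher at 1008 h, by 0.79 to 1.00 over the fits that left out 1 array. Such fits lost its 2 h call in 3 of 6 and its 1008 h call in 4 of 6. Its calls at 6 h and 12 h held in every fit.

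Ndufaf3, named array by array after its values were seen, had 6.39, 6.29 and 6.45 at 6 h, against 7.39, 7.36 and 7.41 untreated. The arrays of each group lay close together and far from the other group. It fell by 1.01 ± 0.15 at 6 h, to 0.497 times the untreated level (adjusted p = 2.05e-06), by 0.63 at 12 h and by 0.46 at 1008 h. Fits that left out 1 array lost the Ndufaf3 call at 1008 h in 5 of 6 and kept those at 6 h and 12 h. Ndufaf5, which in human cells hydroxylates Ndufs7, rose by 0.59 at 6 h and 0.60 at 12 h. Ndufaf7, a methyltransferase for another core subunit, fell by 0.51 at 2 h, a call lost in 4 of 6 fits that left out 1 array. Ndufaf1, Ndufaf2 and Ndufaf6 were called at no FVB time. Of 11 further assembly factors whose symbols do not follow the rule, 3 rose and 2 fell at 6 h (12.1% and 12.6% of all genes). At 24 h 2 rose (6.11% of all genes). Timmdc1, which helps to build the membrane arm, rose by 0.79 at 6 h and 1.22 at 12 h, and Tmem126b, which acts in the same complex of assembly factors, fell by 0.73 at 6 h.

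In F1 skin fewer of the 42 genes passed, and Ndufaf4, Ndufaf3 and Ndufa4l2 led the early calls as in FVB. At 4 h 2 were higher and 6 lower (20.6% of all genes were called), at 6 h 1 and 3 (19% of all genes), at 12 h 6 and 1 (9.08% of all genes), at 24 h 3 and 0 (2.72% of all genes) and at 48 h 2 and 0 (2.12% of all genes). At 72 h 1 was called (3.93% of all genes) and at 1008 h 2 (1.67% of all genes). The F test over all times called 11 of the 42 (26.7% of all genes). The median changes at 4, 6, 12, 24, 48, 72 and 1008 h were 0.11, 0.16, 0.39, 0.39, 0.29, 0.07 and 0.18, with the all-gene median between -0.06 and 0.01. At 24 h 36 of the 42 changes were positive, and 29 genes had both treated arrays above all 4 untreated ones (16.4% of all genes). All 7 genes called in F1 at 12 h were among the 15 called in FVB at 12 h, in the same direction, and 3 of the 4 called in F1 at 6 h were among the 11 called in FVB. Without the 2 arrays of narrow range the F1 counts at 6, 12, 24 and 48 h were 12, 20, 12 and 13 (29.3%, 18%, 7.6% and 5.84% of all genes), those at 72 and 1008 h were 0 and 4 (0% and 4.33%), and the F test called 19 (35%). With each array centred on its median, 2 were higher and 2 lower at 4 h, 2 and 3 at 6 h and 9 and 0 at 12 h.

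Ndufaf4 had 7.57 and 7.35 at 4 h and 7.32 and 7.25 at 6 h in F1, against 5.47, 5.76, 6.20 and 5.61 untreated. Both treated groups were wholly higher. The 4 h rise of 1.70 ± 0.29 was 3.25-fold (adjusted p = 2.31e-05). Ndufaf3 had 6.57 and 6.45 at 4 h and 6.50 and 6.31 at 6 h, against 7.21, 7.39, 7.06 and 7.38 untreated, again without overlap, and fell by 0.75 ± 0.16 at 4 h (adjusted p = 0.000504).

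Ndufa4l2 in F1 had 5.38 and 5.07 at 6 h, against 6.93, 6.32, 6.34 and 6.27 untreated, and fell by 1.23 ± 0.33 (adjusted p = 0.00507). It then lay above the untreated arrays, with 7.75 and 7.58 at 24 h and 7.47, 8.23 and 7.05 at 48 h, rises of 1.21 ± 0.33 and 1.17 ± 0.29 (adjusted p = 0.0307 and 0.0164). At 1008 h its 6 arrays had a lowest value of 6.75, a median of 7.64 and a highest of 8.31, and the lowest overlapped the untreated range; the rise was 1.14 ± 0.25 (adjusted p = 0.00646). Ndufb6 had 10.34 and 10.25 at 12 h, against 9.30, 8.76, 8.81 and 8.45 untreated, and rose by 1.46 ± 0.37 (adjusted p = 0.00787). Ndufa1 rose at 12, 24, 48 and 1008 h, by 1.18 ± 0.22 at 24 h (adjusted p = 0.000803), with 7.15 and 6.996 on the treated arrays, against 6.22, 5.55, 5.81 and 5.99 untreated.

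The F1 arrays came from batches 2 and 3. Fits within a batch rest on few arrays. Batch 3 holds 2 untreated F1 arrays, 2 at 1008 h and 1 at each of 4, 6, 12, 24 and 48 h, with 2 residual degrees of freedom, so a lone array is taken to vary like the groups of 2. The counts there were 9, 8, 10, 11, 4 and 5 at 4, 6, 12, 24, 48 and 1008 h (33.6%, 34.5%, 16.6%, 11.2%, 2.58% and 12.3% of all genes). Batch 2 holds 2 untreated arrays, 1 at 4, 6, 12 and 24 h and 2 to 4 later, with 10 residual degrees of freedom and both arrays of narrow range. There limma called 0 at each of 4, 6, 12, 24, 48, 72 and 1008 h (at most 0.866% of all genes), with 0 to 3 at an unadjusted p under 0.05. The median change at 24 h was 0.38 within batch 2 and 0.47 within batch 3, and at 12 h 0.12 and 0.49. Single arrays carried many of the calls: at 4 h the count was 5, 4 and 4 without untreated replicate 2, 3 or 4, and 2 and 1 without treated replicate 1 or 2. At 12 h it was 4 without untreated replicate 2 and 1 without either treated array. At 24 h it was 1 without untreated replicate 2 or either treated array, and Ndufa1 kept its call in each of these fits.

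In SPR skin the calls other than those at 12 h were few. At 4 h Ndufaf3 fell by 0.85 ± 0.19 (adjusted p = 0.00196; 7.43% of all genes were called), with 6.36 and 6.49 on the treated arrays, against 7.12 and 7.43 untreated. Ndufa4l2 had 7.40 and 7.73 at 24 h and 7.48 and 7.30 at 48 h, against 5.60 and 5.50 untreated. All treated arrays were far above both untreated ones. It rose by 1.87 ± 0.39 at 24 h, 3.67-fold (adjusted p = 0.0188; 0.271% of all genes were called), and by 1.84 ± 0.38 at 48 h (adjusted p = 0.0267; 0.207% of all genes). Each of these 2 calls was lost without any 1 of its arrays. At 24 h 38 of the 42 changes were positive with a median of 0.25, at 48 h the median was 0.18, and at 1008 h it was -0.11, where limma called 0 of the 42 (0% of all genes) and 0 had an unadjusted p under 0.05.

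At 12 h 13 of the 42 genes fell in SPR and none rose (32.7% of all genes were called), with a median change of -0.50, and this rested on the array of narrow range. Ndufs7 shows it: the 12 h arrays had 7.24 and 10.66, against 10.47 and 10.57 untreated, so the groups overlap and 1 treated array is far below. On that array the keratinocyte markers stood at -3.70 from their means. Without it none of the 42 passed (1.08% of all genes), the median change was 0.16, and 11 of the 13 changes turned positive, with 1 treated array left. The SPR F test called 24 of the 42 (35.3% of all genes) with it and 8 without the 2 arrays of narrow range.

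The change against 0 h was compared between strains in the same fit. FVB was batch 1 alone and the others were batches 2 and 3, so strain and batch cannot be told apart in these differences. FVB minus F1 passed the F test over shared times for 1 gene, Ndufa4l2 (adjusted p = 0.026; 1.88% of all genes passed). At 1008 h 2 genes differed (1.52% of all genes). The change of Ndufa4l2 was -0.90 in FVB and 1.14 in F1, a difference of -2.04 ± 0.39 (adjusted p = 0.002), and the F test passed for none of the 42 once any 1 of the 3 FVB arrays of 1008 h, or F1 replicate 3 of that time, was left out. The change of Ndufs4 was -1.49 in FVB and 0.29 in F1, a difference of -1.78 ± 0.46 (adjusted p = 0.035). With a single untreated FVB control neither difference passed (0 of the 42 and 0.0478% of all genes). In F1 the 6 arrays of 1008 h had a lowest value of 9.01, a median of 9.67 and a highest of 10.10, against 9.44, 9.44, 9.48 and 8.85 untreated, with overlap, while in FVB the arrays of 1008 h all lay below the untreated ones. At the earlier shared times limma called 0 of the 42 in this difference (0% of all genes at 6 h, 0% at 12 h, 0.0106% at 24 h, 0.0691% at 48 h, 0.367% at 72 h), with 1 to 8 at an unadjusted p under 0.05. Leaving out the 2 arrays of narrow range gave 3 calls at 48 h (2.74% of all genes) and 7 at 1008 h (6.96%). At 6, 12 and 24 h it still gave 0.

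FVB minus SPR passed the F test for 16 genes (20.5% of all genes) and for 4 without the 2 arrays of narrow range (5.87%), namely Ndufa4, Ndufa4l2, Ndufs6 and Ndufv3. At 12 h 17 of the 42 differed, 15 with the higher change in FVB and 2 with the lower (18.7% of all genes), and 1 did without the arrays of narrow range. Limma called 0 of the 42 for the other shared times (0.0106% of all genes at 24 h, 0.143% at 48 h, 1.44% at 1008 h), with 5, 8 and 9 at an unadjusted p under 0.05. Leaving out the 2 arrays of narrow range gave 1, 1 and 8 calls there (0.112%, 1.3% and 8.4% of all genes). Ndufs6 had 6.07 and 6.004 at 24 h in SPR, against 6.65 and 6.81 untreated, while its FVB arrays of 24 h were all higher than untreated ones. That difference of change was 2.14 ± 0.45 with all arrays (adjusted p = 0.057) and passed without the 2 arrays of narrow range (adjusted p = 0.003). The SPR comparison rested on 2 arrays in each group, and its counts moved between 3 and 32 as single arrays were left out, 3 being without SPR 12 h replicate 1 and 32 without SPR 12 h replicate 2.

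Genes of the other respiratory complexes were followed with lists chosen by function. In FVB at 24 h, where 6.11% of all genes were called higher, 1 of 4 genes of complex II and 5 of 8 of complex III rose. So did 5 of 15 of complex IV and 6 of 15 of the ATP synthase, and none of these genes fell. Their median changes were 0.43, 0.75, 0.58 and 0.74, beside 0.52 for the 33 complex I subunits. In complex II the changes at 24 h were 0.43 for Sdha, 0.44 for Sdhb, 0.30 for Sdhc and 0.88 for Sdhd, of which Sdhd passed (adjusted p = 0.00327). Uqcrh, a hinge subunit of complex III, rose by 1.26, Cox5a of complex IV by 1.61 and Atp5g3, which encodes the ring subunit of the ATP synthase, by 1.18. Of 13 citrate cycle genes 1 rose at 24 h, a share near that of all genes. Of 20 genes of glycolysis and hypoxia response 14 rose at 24 h with a median of 1.11, led by Pgk1 (2.25) and the hexokinase Hk2 (1.98). At 6 h 8 of these 20 rose (12.1% of all genes) with a median of 0.77, beside -0.12 for the 33 subunits. In F1 at 24 h the medians were 0.44 for the 33 subunits and 0.56, 0.54, 0.30 and 0.52 for complexes II, III, IV and the ATP synthase. The glycolysis and hypoxia genes had a median of 1.01, and 7 of 20 rose (1.58% of all genes).

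**Figure D4:**
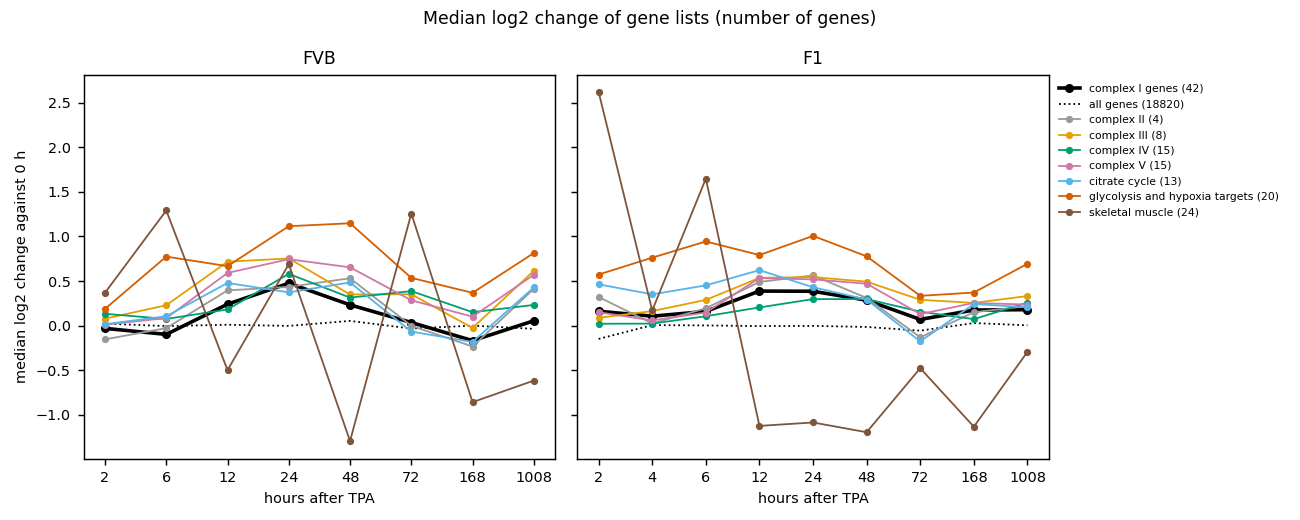
Median log2 change against 0 h of the 42 complex I genes (thick black line), the other respiratory complexes, citrate cycle, glycolysis and hypoxia genes, skeletal muscle markers and all genes (lines) by time in FVB and F1. At 24 h in FVB the medians are 0.48 for the 42 complex I genes, 0.75 for complex III and 1.11 for glycolysis and hypoxia genes, and the muscle markers swing widely.

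Cell type markers moved over the same times. The neutrophil markers (12 of 13 measured) stood at 0.43 to 0.92 in FVB at 24 h, against -1.09 to -0.90 untreated, and at 0.53 to 1.38 at 6 h, when the median change of the 33 subunits was -0.12. Skeletal muscle markers (24 of 24 measured, including Acta1, Ckm, Myh4 and Tnnt3), which come with a tissue rich in mitochondria, stood at 0.19, 0.57 and 1.30 at 24 h and 1.06 to 1.27 at 6 h, against -0.22, 0.01 and 0.34 untreated. They averaged below the untreated arrays at 12 h (0.30, -0.08 and -1.89) and 48 h (-0.69, -0.74 and -1.97), and the complex I median at these times was 0.24 and 0.23. In F1 at 24 h they stood at -1.11 and -0.08, against 0.72, -1.02, 0.65 and 1.01 untreated, where the complex I median was 0.39. Macrophage markers (11 of 11) stood at 0.19 to 0.28 in FVB at 24 h, against -0.24 to -0.13 untreated, and keratinocyte markers (11 of 12) at -0.04 to -0.00, against -0.13 to 0.29. Adipocyte markers (9 of 10) stood at -0.31, 1.35 and 0.15 at 24 h and 1.63, -0.74 and 1.83 at 48 h, against -0.57, -0.18 and 0.25 untreated; 8 of the 9 changes were positive at each time, with medians of 0.53 and 1.27. At 12 h they stood at -0.08, -0.59 and -1.79. Fibroblast markers (9 of 9) stood at -0.36 to 0.12 at 24 h, against 0.09 to 0.79 untreated, and sebaceous gland markers (10 of 10) at -0.48 to -0.00, against 0.38 to 0.66. The part of muscle, fat and the other cell types in the complex I changes was not tested.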

How the data were processed

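Per the labels, 69 arrays of mouse dorsal skin were hybridised, of which 66 fall into 27 groups of strain and time; 3 whose labels give no strain entered no comparison. As deposited, the table holds log2 values of 35556 probe sets, and per the submitters' processing notes the authors used RMA, which corrects background, makes the distributions of arrays alike and summarises probes. Its version, the treatment of batches and a filter are not given in the sources used here. RMA removes shifts common to all genes, so changes are relative to the other genes of an array. By the platform's annotation 21218 probe sets carried 1 symbol, 1881 several, and 12457 were unnamed here. Another 4 probe sets with a complex I symbol carried several symbols and were left out.

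Changes were tested with limma 3.58.1 (R 4.3.3; lmFit, eBayes) fitting the mean of each of the 27 groups, an effect of batch 3 over batch 2, with 38 residual degrees of freedom. P-values were two-sided and Benjamini-Hochberg adjusted over 18820 genes in each comparison. Groups of 1 array got values without a test; where an alternative left a group with 1 array, that array was taken to vary like the other groups. The scripts were tested on simulated data. A mean centred level of a list is the mean over its genes of log2 values minus each gene's mean. The genes, lists, tests and alternatives were chosen with earlier results of these data known. Given array by array are the 6 genes with the largest called change in FVB and those with the largest rise and fall in F1 and SPR, plus Ndufa1 and Ndufaf3. Alternatives changed the eBayes settings, the scaling, the filter, the probe sets, the arrays fitted, the batch term and the replicate numbers, or left out arrays. Same-numbered arrays of a strain did not deviate together (22 of 108 pairs in FVB, 20 of 60 in F1 and 8 of 30 in SPR correlated over 0.1), so the numbers were not taken to pair arrays. Tables and plots were made with Python 3.11.15, pandas 2.3.3 and matplotlib 3.10.9. The number of arrays limits the precision.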

Additional observations from a re-analysis of the deposited data

Results flagged for a closer look

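In untreated F1 skin, 3 of 43 values tested (the 42 genes and their mean) had 1 array far from the other 3: the highest was 7.96 for Ndufa3 and 6.93 for Ndufa4l2, and the lowest was 8.85 for Ndufs4. In F1 at 1008 h, 1 of 43 had such an array, the lowest for Ndufb10 at 5.92. Chance gives about 1 in 20 such gaps.

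The changes of some genes differed between FVB and the other strains, which were also run in other batches, so strain and batch cannot be told apart. FVB minus F1 passed limma's F test over shared times for Ndufa4l2 (adjusted p = 0.026), and at 1008 h the difference was -2.04 for Ndufa4l2 and -1.78 for Ndufs4. FVB minus SPR passed for 16 genes with all arrays. Among core and peripheral arm genes these were Ndufv2 (adjusted p = 0.0134), Ndufs3 (0.0268), Ndufs7 (0.0345), Ndufs6 (0.00739), Ndufs4 (0.0193) and Ndufa6 (0.0445). In the membrane arm they were Ndufb6 (adjusted p = 0.0151), Ndufc2 (0.0316), Ndufb5 (0.0378), Ndufa8 (0.0381), Ndufb4 (0.0418), Ndufb11 (0.0466) and Ndufb9 (0.0486). The others were Ndufa4 (adjusted p = 0.0121), Ndufa4l2 (0.00996) and Ndufaf4 (0.0474). Without the 2 arrays of narrow range, 3 of these 16 passed, Ndufa4, Ndufa4l2 and Ndufs6, and Ndufv3 joined them.

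Of the 3 arrays whose labels give no strain, 1 had a mean centred level of the 42 genes of 0.0142, above the highest untreated array at 0.000494, and the others had -0.143 and -0.0799.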

How the results depend on the processing

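Over 13 alternatives that left out no single array, 1030 of 1246 single-gene results kept their direction and their side of the threshold, 196 kept the direction only and 20 changed sign. Of 532 counts and medians 433 held and 99 moved. These totals include F1 and SPR results under alternatives that left out FVB arrays alone. Such results could move only through the spread shared by all groups. The totals are therefore no measure of how well the FVB calls held. The trend and robust settings, the fit without the batch term and the fit without 3 FVB arrays with markers of other tissues moved no count or median. Counts of genes called are given in time order, and causes were not tested. Without the 2 arrays of narrow range they were 5, 19, 12 and 4 at 2, 24, 72 and 168 h in FVB (24.7%, 25.3%, 14.2% and 6.75% of all genes); 12, 20, 12, 13, 0 and 4 at 6, 12, 24, 48, 72 and 1008 h in F1 (29.3%, 18%, 7.6%, 5.84%, 0% and 4.33%); and 0 at 12 h in SPR (1.08%). F tests then gave 19 in F1, 8 in SPR, 4 for FVB minus F1 and 4 for FVB minus SPR, and medians were 0.15 at 72 h in F1 and 0.16 at 12 h in SPR. With untreated FVB replicate 1 alone they were 0, 3, 5, 4, 2, 0 and 1 at 2, 6, 12, 24, 48, 72 and 1008 h, with medians of 0.39 at 12 h and -0.047 at 168 h, and 8 for FVB minus SPR. Cyclic loess gave 17, 9 and 3 at 24, 72 and 168 h in FVB; 7, 12, 9, 8, 5 and 4 at 6, 12, 24, 48, 72 and 1008 h in F1 with a 72 h median of 0.40; and 2 at 12 h in SPR with a median of 0.20. Its F tests gave 23 in F1, 6 in SPR, 5 for FVB minus F1 and 7 for FVB minus SPR. Calls in FVB rose over all genes too under cyclic loess. At 24 h 12.7% were higher and 11.5% lower (6.11% and 7.36% as reported). At 72 h these shares were 6.34% and 5.78% (1.47% and 1.84% as reported). At 168 h they were 3.57% and 2.51% (0.308% and 0.159% as reported). For F1 at 6 h they were 14.1% and 13.6% (8.79% and 10.2% as reported). The F1 shares at 12 h were 8.95% and 7.75% (4.45% and 4.63% as reported). For F1 at 24 h they were 3.67% and 3.13% (1.58% and 1.14% as reported). The F1 shares at 48 h were 3.06% and 2.01% (1.42% and 0.701% as reported). For F1 at 72 h they were 0.999% and 0.574% (0.361% and 3.57% as reported). The F1 shares at 1008 h were 2% and 2% (0.898% and 0.77% as reported). For SPR at 12 h they were 2.09% and 1.4% (9.47% and 23.3% as reported). Each strain fitted alone gave 17, 8 and 2 at 24, 72 and 168 h in FVB. For F1 it gave 8, 16, 12, 7 and 4 at 6, 12, 24, 48 and 1008 h and 20 by F test. For SPR it gave 0 at 4, 12, 24 and 48 h and by F test. Shares over all genes for these fits are not given here. Within batch 2, F1 had 0 at each tested time, a 12 h median of 0.12 and 1 by F test, and SPR had 0 at 4, 12, 24 and 48 h and 1 by F test. Within batch 3, F1 had 8, 11, 4 and 5 at 6, 24, 48 and 1008 h and medians of 0.49, 0.47, 0.45 and 0.31 at 12, 24, 48 and 1008 h. Centring each array on its median gave medians of 0.15, 0.027, 0.16 and -0.028 at 2, 6, 72 and 168 h in FVB and of 0.23, 0.24, 0.51 and 0.24 at 4, 6, 12 and 72 h in F1, 4 calls at 4 h in F1, 0 for FVB minus F1 and 10 for FVB minus SPR; the shift of all genes reached 0.18 at 2 h in FVB. With all probe sets in the fit 1 gene passed at 2 h in FVB and 0 at 48 h in SPR, and without dim probe sets 5 passed at 24 h in F1. Replicate numbers as a block, which do not pair arrays, gave 1 at 2 h in FVB, 4, 1, 0 and 1 at 4, 24, 72 and 1008 h in F1 and 10 for FVB minus SPR; they moved no other count by over 1.5 times.

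At 12 h in SPR 11 falls changed sign without the array of narrow range, which also gave the highest of their values over fits without 1 array; the lowest were those without replicate 2. The change without replicate 1, and against it that without replicate 2, was 0.12 for Ndufa10 against -2.20, 0.033 for Ndufb11 against -2.91, 0.053 for Ndufb4 against -2.89, 0.34 for Ndufb5 against -1.91, 0.20 for Ndufa9 against -2.02, 0.14 for Ndufs4 against -2.79, 0.059 for Ndufs6 against -1.77, 0.004 for Ndufv3 against -1.15, 0.0015 for Ndufs3 against -2.22, 0.14 for Ndufs7 against -3.285 and 0.20 for Ndufv2 against -2.29. Under cyclic loess 9 changed sign: Ndufa10 at 0.25, Ndufb11 at 0.095, Ndufb4 at 0.089, Ndufb5 at 0.20, Ndufa6 at 0.21, Ndufa9 at 0.027, Ndufv3 at 0.00896, Ndufs3 at 0.013 and Ndufv2 at 0.20.

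Leaving out each array in turn gave these ranges. For FVB at 2, 6, 12, 24, 48, 72, 168 and 1008 h the counts lay at 0 to 2, 7 to 10, 10 to 13, 6 to 11, 7 to 9, 0 to 3, 0 to 0 and 6 to 9, the F test count at 28 to 30, and the medians at -0.061 to 0.027, -0.17 to -0.022, 0.15 to 0.34, 0.40 to 0.50, 0.13 to 0.29, -0.067 to 0.093, -0.22 to -0.063 and -0.0041 to 0.13. For F1 at 4, 6, 12, 24, 48, 72 and 1008 h the counts lay at 1 to 7, 2 to 4, 1 to 7, 1 to 4, 1 to 2, 0 to 7 and 0 to 2, the F test count at 9 to 18, and the medians at -0.013 to 0.15, 0.12 to 0.19, 0.20 to 0.42, 0.36 to 0.42, 0.26 to 0.38, 0.027 to 0.15 and 0.15 to 0.22. For SPR at 4, 12, 24, 48 and 1008 h the counts lay at 0 to 2, 0 to 30, 0 to 0, 0 to 0 and 0 to 0, the F test count at 8 to 35, and the medians at -0.14 to 0.0195, -1.12 to 0.16, 0.20 to 0.45, 0.11 to 0.26 and -0.21 to 0.028. FVB minus F1 gave 0 to 3 and FVB minus SPR 3 to 32. The SPR range at 12 h runs between 0 without replicate 1 of that time and 30 without replicate 2. Depth cannot be read from array values, and groups of 1 to 6 arrays limit what could be called.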

Other observations

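Several regulators of nuclear genes for mitochondrial proteins changed early. In FVB at 6 h 7 of 15 measured regulators rose and 2 fell (12.1% and 12.6% of all genes), the falls at a share near that of all genes. Among the rises were the coactivators Pprc1 (1.55, adjusted p = 1.48e-06) and Ppargc1b (1.16, adjusted p = 0.000579) and the growth regulator Myc (1.53, adjusted p = 0.000216). The fatty acid regulator Ppara fell by 2.10 at 6 h (adjusted p = 8.65e-06) and Ppargc1a by 0.90. At 24 h 2 of the 15 rose and 1 fell (6.11% and 7.36% of all genes). In F1 5 rose and 1 fell at 4 h (9.09% and 11.5% of all genes) and again at 6 h (8.79% and 10.2%). These genes were listed with results of these data known, and their relation to the complex I genes was not tested.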
